A study of Mus musculus with 212 samples.

Results

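The 7 genes whose products phosphorylate clock proteins, or add ubiquitin to them or remove it, were followed in mouse skin fibroblasts: Csnk1d, Csnk1e, Csnk1a1, Gsk3b, Btrc, Fbxw11 and Usp2. They were found by symbol in the deposited table, and all 7 of 7 symbols matched 1 gene each among 47631. Every member passed the filter on low values, which was set at an average of 1 FPKM (fragments per length of transcript and per size of library, so that levels of different genes can be set side by side). The cells were C57BL/6 skin fibroblasts, either wild type (WT) or Bmal1-/-, which lack the clock activator BMAL1. Both genotypes were grown to confluence and given 100 nM dexamethasone, a glucocorticoid that sets cultured clocks to a common phase, for 15 min. Medium buffered with HEPES replaced it, the dishes stayed in darkness, and the first harvest came 48 h later. Each genotype gave 5 time courses, and every time point is a single library. The AM and PM courses run from CT0 to CT48 in steps of 3 h (17 libraries each). Those at 27, 32 and 37 °C run from CT0 to CT46 in steps of 2 h (24 each). The labels do not state what AM and PM mean, and give no culture temperature for those courses. How the Bmal1 allele was made and whether the 3 wells of a time point were pooled is not stated either. Nor is how many animals or cell preparations gave each genotype. The p-values therefore rest on the spread among libraries within courses, which may be technical, and genotype and cell preparation cannot be told apart.

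The negative limb of the circadian clock is timed by the modification and destruction of its proteins. Casein kinases 1 delta and epsilon (Csnk1d, Csnk1e) phosphorylate PER proteins, and the F-box proteins beta-TrCP1 (Btrc) and beta-TrCP2 (Fbxw11) recognise phosphorylated PER and bring it to the SCF ubiquitin ligase. Casein kinase 1 alpha (Csnk1a1) and glycogen synthase kinase 3 beta (Gsk3b) phosphorylate PER, CRY, REV-ERB and other substrates in and outside the clock. USP2 is a deubiquitinase that removes ubiquitin from clock and other proteins, and its gene is a rhythmic output of the clock in many tissues.

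Estimated depth ran from 9.89 to 32.76 M reads per library, with a median of 22.8 M. The 10 fibroblast markers on the list, collagens and Pdgfra among them, all reached 1 FPKM, with a summed level of 8625 to 21486 FPKM by course. Among markers of other skin cells, Krt5 and Krt14 (keratinocytes), Adgre1 and Ptprc (macrophages), Cdh5 (endothelium), Dct (melanocytes) and Sox10 (Schwann cells) stayed under 1 FPKM in every library. Summed levels were 1.05 to 4.52 FPKM for 4 keratinocyte markers, 1.21 to 4.93 for 4 endothelial markers, 1.5 to 30.8 for 4 macrophage markers, 1.2 to 16.7 for 3 melanocyte markers, 1.05 to 17.8 for 3 adipocyte markers, 0.430 to 1.05 for 3 Schwann cell markers and 0.02 to 0.21 for 3 muscle markers. In the 32 °C courses 1 noncoding gene, Gm26377, held 18.8 to 34.2% of the summed FPKM, and no gene exceeded 4.46% elsewhere. Arntl, which encodes BMAL1, averaged 4.97 to 7.36 FPKM by course in WT and 5.79 to 8.01 in Bmal1-/-. No label says which exons were removed, so that its level does not check the labels, but its SD within a course was 1.11 to 1.61 in WT and 0.36 to 0.55 in Bmal1-/-. The 2 libraries at 27 °C and CT14 were left out of all results below. There Cdkn1a stood at 109 FPKM in the library labelled WT and at 3.87 in the library labelled Bmal1-/-, the reverse of the other libraries, where the course means were 1.91 to 4.87 in WT and 118 to 140 in Bmal1-/-. That leaves 210 libraries.

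A pair of members carried the calls on levels, Usp2 by genotype and Csnk1e by temperature. The 250 bases before their RefSeq starts (build GRCm38.p6) are shown because these genes turned on those comparisons, with every GC-box (GGGCGG or CCGCCC, the binding sequence of SP-family factors, both strands) in capitals. The Usp2 stretch is chr9:44084670-44084919 on the plus strand. It ends 17899 bases downstream of the first start of Usp2 in GENCODE M21, inside the gene, and covers no annotated exon. The Csnk1e stretch is chr15:79442144-79442393 on the minus strand, the first of 4 RefSeq starts of this gene, also outside annotated exons. It too ends inside the gene, 13423 bases downstream of the first start of Csnk1e in GENCODE M21.
Usp2: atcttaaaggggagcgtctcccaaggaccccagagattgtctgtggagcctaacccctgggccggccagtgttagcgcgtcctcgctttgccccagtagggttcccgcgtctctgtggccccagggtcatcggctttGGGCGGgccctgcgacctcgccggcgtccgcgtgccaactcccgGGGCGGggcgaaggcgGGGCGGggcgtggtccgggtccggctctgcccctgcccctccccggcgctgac
Csnk1e: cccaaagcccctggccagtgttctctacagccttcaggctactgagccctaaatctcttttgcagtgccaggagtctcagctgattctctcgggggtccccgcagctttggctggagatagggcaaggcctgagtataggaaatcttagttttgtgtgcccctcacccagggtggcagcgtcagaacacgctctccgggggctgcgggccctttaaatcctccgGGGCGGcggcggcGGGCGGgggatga
Usp2 has 3 GC-boxes, 25 CpG pairs and 71.6% G and C. Csnk1e has 2 GC-boxes, 12 CpG pairs and 61.2% G and C. The partly overlapping windows of its other RefSeq starts, which also take in bases after the start, hold 5, 6 and 6 GC-boxes. Of 32851 such windows over all genes, 32.7% hold a GC-box in these 250 bases. Clock motifs were searched on both strands: the E-box CACGTG (6.02% of windows), the variant CACGTT or AACGTG (3.85%) and the REV-ERB and ROR element TAGGTCA or TGACCTA (2.23%). None of these letters occurred in either stretch, nor in the windows of Gsk3b and Fbxw11, the other members with an entry. A match or its absence describes these letters in this window and nothing more.

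The members spanned a wide range of levels. Over the 210 libraries Csnk1a1 averaged 124 FPKM, Csnk1d 82.02, Csnk1e 66.8, Fbxw11 37.6, Gsk3b 23.2, Btrc 5.60 and Usp2 5.21. Each beta-TrCP paralogue was thus present, with Fbxw11 the higher of the pair in every library. Csnk1a1 was the steadiest member: its highest course mean was 1.32 times its lowest, a ratio smaller than that of all but 1.60% of the 13164 genes that average 1 FPKM or more. Btrc, at 1.40, had a smaller ratio than all but 4.18%. The median ratio over those genes was 2.37, and only Csnk1e (3.78) and Usp2 (3.30) exceeded it. Csnk1d (2.06), Fbxw11 (1.94) and Gsk3b (1.90) lay below it. Of the 101-base windows of each member's transcripts, none occurred in a transcript of another gene, so that the paralogues did not share whole reads. Genes on the opposite strand overlap exons of Csnk1d (63 bases, Gm28192), Csnk1e (267 bases, Gm16059), Btrc (235 bases, the pseudogene Gm6807) and Usp2 (200 bases, Gm49380 and Gm39325). The libraries are stranded, but no label says whether the counting used strand.

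**Figure D1:**
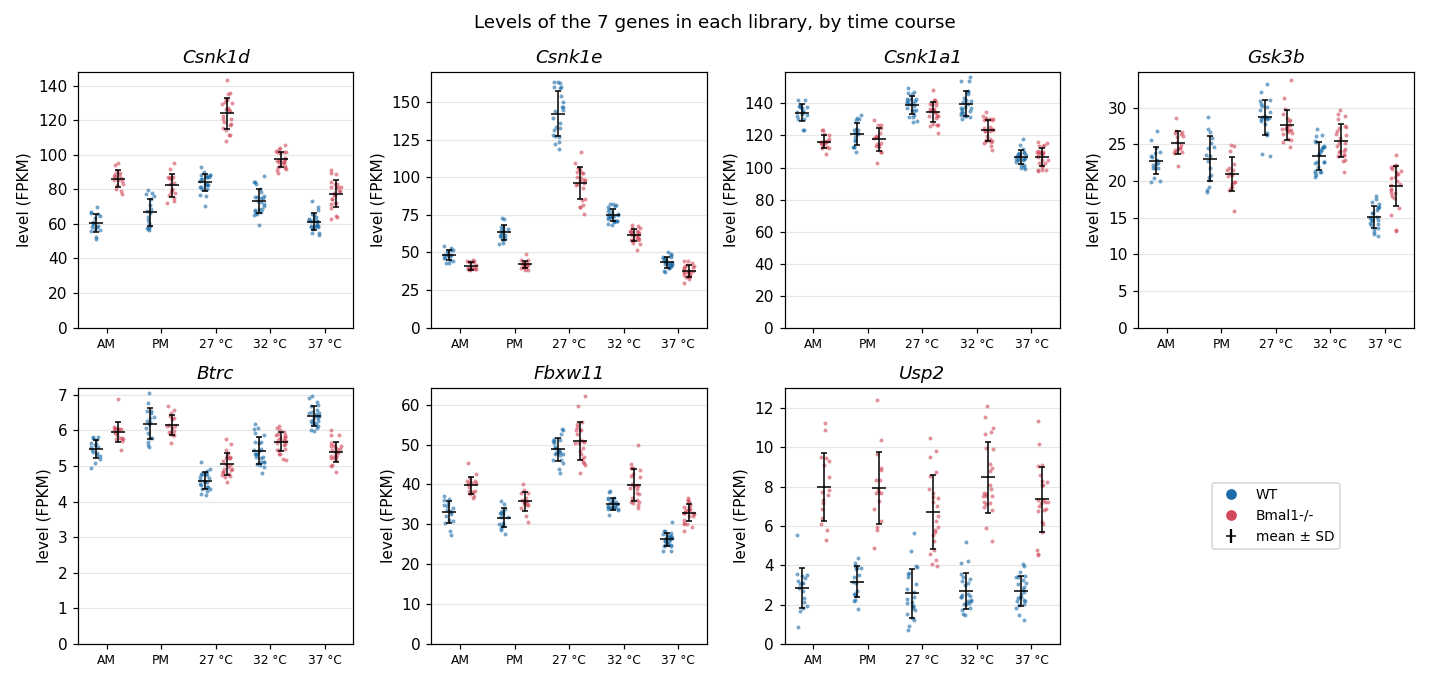
Level in FPKM (vertical axes, starting at 0) of each of the 7 genes in every library, by time course (horizontal axes), with WT in blue, Bmal1-/- in red, and the mean ± SD in black. The Usp2 mean is higher in Bmal1-/- in all 5 conditions, Csnk1e stands highest at 27 °C (142.6 FPKM in WT), and Csnk1a1 and Btrc vary least.

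Loss of Bmal1 was compared with WT in each of the 5 conditions. A call needed both a 2-fold difference and an adjusted p under 0.05. Usp2 was the only member called, and it was higher in Bmal1-/- each time. Its course means ran from 2.57 to 3.15 FPKM in WT and from 6.71 to 8.47 in Bmal1-/-. In AM, Usp2 stood at 0.869, 3.06 and 5.52 FPKM (lowest, median and highest) in WT and at 5.27, 7.73 and 11.3 in Bmal1-/-. The AM ranges touched only through the WT library at CT48, the highest of its course. In PM the values were 1.75, 3.16 and 4.35 in WT against 4.86, 7.73 and 12.4 in Bmal1-/-, with no overlap. At 37 °C they were 1.19, 2.58 and 4.04 against 4.53, 7.21 and 11.3, and at 32 °C 1.49, 2.41 and 5.17 against 5.22, 7.78 and 12.1, again with no overlap. At 27 °C WT libraries lay at 0.709, 2.26 and 5.64 and Bmal1-/- libraries at 3.97, 6.53 and 10.5, and the ranges overlapped. Usp2 was higher in Bmal1-/- at 104 of 105 matched time points.

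On the log2(FPKM + 1) scale, which understates the change of a gene as low as Usp2, its difference (Bmal1-/- minus WT) was 1.26 ± 0.09 (SE) in AM, with an adjusted p of 1.58e-18 by limma with Benjamini-Hochberg adjustment. It was 1.09 ± 0.09 in PM (6.69e-16), 1.17 ± 0.10 at 27 °C (1.54e-22), 1.38 ± 0.09 at 32 °C (3.54e-28) and 1.18 ± 0.09 at 37 °C (2.64e-23). The course means differed 2.83-fold in AM, 2.51-fold in PM, 2.61-fold at 27 °C, 3.15-fold at 32 °C and 2.75-fold at 37 °C. The 1 of 7 members called in each condition reads against 14.6% of all genes called in AM, 15.6% in PM, 13.5% at 27 °C, 14.5% at 32 °C and 14% at 37 °C, so that the count itself is close to the background. In bulk cultures, fewer cells of a type and less RNA per cell cannot be told apart. Fabp4, an adipocyte gene, averaged 10.5 FPKM in Bmal1-/- and 2.39 in WT at 37 °C. In the same order it averaged 10.6 and 1.42 in AM and 13.8 and 1.53 in PM. The genotypes lay closer at 32 °C (2.52 and 2.12) and at 27 °C (1.64 and 0.986), where Adipoq and Plin1 were near 0 in both. Of the melanocyte genes at 37 °C, Mlana averaged 0.181 and 5.97, Pmel 1.009 and 0.676, and Dct was near 0 in both. Pmel was thus higher in Bmal1-/-, as it was in each of the 5 conditions, and Mlana lower. The part of such genotype-linked markers in the Usp2 difference was not tested.

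Usp2 also differed between the days at 27 °C. In WT its mean was 3.26 ± 1.203 FPKM (SD, n = 11) over the first day and 1.94 ± 0.94 (n = 12) over the second. In Bmal1-/- it was 5.99 ± 2.21 (n = 11) and 7.37 ± 1.29 (n = 12). The fitted slopes were -0.44 ± 0.13 log2 units per day in WT (adjusted p 0.00364, limma) and 0.37 ± 0.13 in Bmal1-/- (0.0243). The first day alone gave a genotype difference of 0.71 on the log2 scale, below the 2-fold limit, and the second day alone gave 1.56. In the other 4 conditions the difference stayed between 1.05 and 1.43 on either day.

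**Figure D2:**
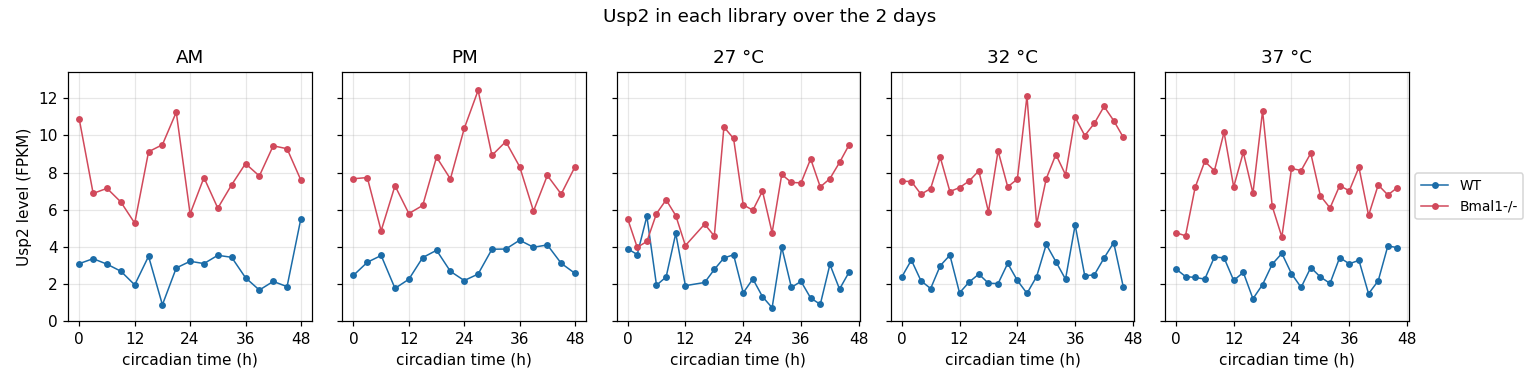
Usp2 level in FPKM (vertical axis, starting at 0) against circadian time in h, in 5 panels for the 5 conditions, with WT in blue and Bmal1-/- in red and 1 point per library. The red line lies above the blue at 104 of 105 matched time points, and the gap at 27 °C is wider on the second day.

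The 2 PER kinases differed by genotype in opposite directions, by less than 2-fold. Csnk1d was higher in Bmal1-/- at all 105 matched time points, with log2 differences of 0.51 ± 0.04 in AM, 0.31 ± 0.04 in PM, 0.56 ± 0.03 at 27 °C, 0.41 ± 0.03 at 32 °C and 0.33 ± 0.03 at 37 °C. In AM, Csnk1d stood at 51.3, 59.3 and 69.7 FPKM (lowest, median and highest) in WT and at 77.5, 86.7 and 94.9 in Bmal1-/-. At 27 °C the values were 70.5, 84.6 and 92.8 in WT against 107.8, 125.3 and 143.4. The Csnk1d ranges of the genotypes did not overlap in AM, at 27 °C or at 32 °C, and overlapped in PM and at 37 °C.

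Csnk1e went the other way and was lower in Bmal1-/- at 100 of 105 matched time points. Its log2 differences were -0.23 ± 0.03 in AM, -0.58 ± 0.03 in PM, -0.55 ± 0.03 at 27 °C, -0.29 ± 0.03 at 32 °C and -0.20 ± 0.03 at 37 °C. In PM it stood at 55.4, 62.8 and 73.0 FPKM in WT and at 38.3, 41.96 and 48.9 in Bmal1-/-. The genotypes did not overlap in PM or at 27 °C, and overlapped in the other 3 conditions. For both kinases every adjusted p was at most 1.02e-08 (limma, Benjamini-Hochberg), but 82.3 to 85.3% of all genes passed on p alone, and neither kinase passed the 2-fold limit.

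The balance of the pair therefore differed between genotypes. Within a library the level of Csnk1e was 0.805 ± 0.074 (SD, n = 17) times that of Csnk1d in WT AM and 0.477 ± 0.037 (n = 17) times in Bmal1-/- AM. In PM the ratio was 0.967 ± 0.157 against 0.514 ± 0.049 (n = 17 each). At 27 °C it was 1.70 ± 0.18 against 0.777 ± 0.062 (n = 23 each), at 32 °C 1.033 ± 0.111 against 0.634 ± 0.051 and at 37 °C 0.713 ± 0.068 against 0.492 ± 0.067 (n = 24 each). WT libraries at 27 °C were the only course in which Csnk1e exceeded Csnk1d in every library, with ratios from 1.318 to 2.004. The ratios of the genotypes did not overlap in AM, in PM, at 27 °C or at 32 °C, while at 37 °C the highest Bmal1-/- library (0.617) lay above the lowest WT library (0.578). The ratio is of RNA levels per transcript length and says nothing of the 2 proteins.

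**Figure D3:**
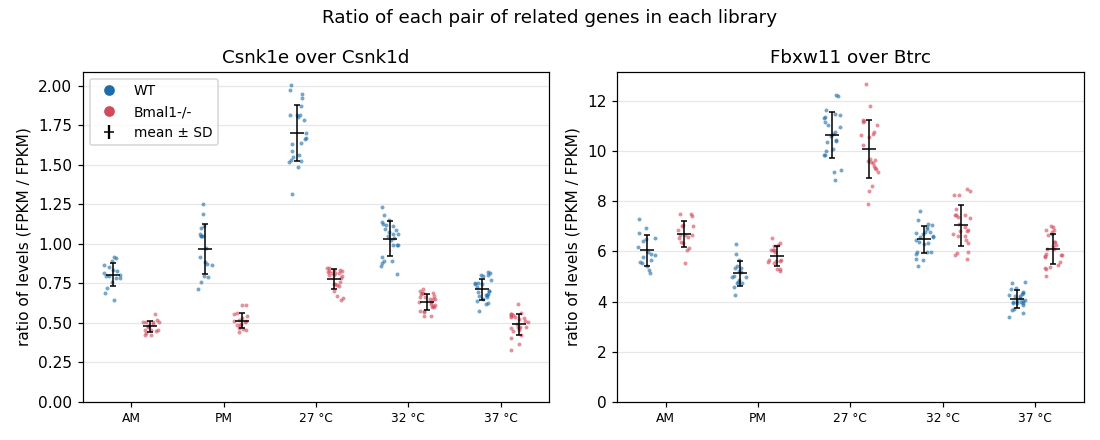
Ratio of levels within each library (vertical axes, starting at 0) for Csnk1e over Csnk1d (left) and Fbxw11 over Btrc (right) by course, with WT in blue, Bmal1-/- in red, and the mean ± SD in black. Csnk1e over Csnk1d is highest in WT at 27 °C (1.70), and Fbxw11 over Btrc is highest at 27 °C in both genotypes (10.7 and 10.1).

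The genotype differences of the other 4 members were also under 2-fold. Csnk1a1 ran from -0.20 (AM) to 0.01 (37 °C) on the log2 scale, with 139.9 ± 7.6 FPKM in WT and 123.2 ± 6.7 in Bmal1-/- (SD, n = 24 each) at 32 °C. Its genotypes were apart only in AM, where the lowest WT library (123.29 FPKM) lay just above the highest Bmal1-/- library (123.24). Gsk3b had differences of both signs, from -0.13 ± 0.04 in PM to 0.34 ± 0.03 at 37 °C. At 37 °C Gsk3b libraries lay at 12.5, 14.9 and 18.02 FPKM in WT and at 13.2, 19.8 and 23.6 in Bmal1-/-, with overlap. Fbxw11 was higher in Bmal1-/- in each condition, from 0.06 ± 0.03 at 27 °C to 0.32 ± 0.02 at 37 °C, and at 93 of 105 matched time points. Btrc ran from -0.21 ± 0.02 at 37 °C, where all 24 time points were lower in Bmal1-/-, to 0.12 ± 0.02 at 27 °C. Neither beta-TrCP gene separated the genotypes without overlap in any condition.

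Culture at 27 or 32 °C was compared with 37 °C within each genotype, the design by which temperature compensation of the clock is examined. Each temperature was a single course per genotype, so that temperature and any batch of a course cannot be told apart. Csnk1e was the only member past the 2-fold limit, at 27 °C and in both genotypes. Gsk3b, Fbxw11, Csnk1d and Csnk1a1 also stood higher at 27 °C in both genotypes, by less than 2-fold. In WT, Csnk1e libraries lay at 37.0, 43.0 and 50.3 FPKM (lowest, median and highest) at 37 °C, at 68.0, 74.1 and 82.5 at 32 °C and at 118.8, 144.02 and 163.6 at 27 °C. In Bmal1-/- they lay at 29.4, 37.5 and 44.6, at 51.6, 61.9 and 68.5 and at 75.6, 98.0 and 117.1. The 3 temperatures did not overlap in either genotype, and Csnk1e was higher at each lower temperature.

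The log2 difference of Csnk1e between 27 and 37 °C was 1.68 ± 0.03 in WT (adjusted p 6.54e-82) and 1.34 ± 0.03 in Bmal1-/- (1.02e-70, limma with Benjamini-Hochberg adjustment), or 3.28-fold and 2.55-fold between course means. Between 32 and 37 °C it was 0.78 ± 0.03 and 0.70 ± 0.03, below the 2-fold limit. Csnk1e was thus the 1 of 7 members called at 27 °C in each genotype, where 13.7% of all genes were called in WT and 11.7% in Bmal1-/-. That count itself is close to the background. None of 7 was called at 32 °C, where 3.32% of genes were called in WT and 2.74% in Bmal1-/-. On adjusted p alone, 6 of 7 members passed in each of the 4 comparisons, against 76.7 to 87.0% of genes.

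The median of all genes itself moved, in WT by 0.21 at 27 °C and by 0.13 at 32 °C, and in Bmal1-/- by 0.20 and 0.13. Relative to that shift the Csnk1e difference at 27 °C was 1.48 in WT and 1.13 in Bmal1-/-. With median-of-ratios scaling it was 1.42 and 1.07 and stayed called. That scaling changed the direction of the calls over all genes at 27 °C from 1097 higher and 682 lower to 585 higher and 1035 lower in WT, and from 994 and 530 to 533 and 840 in Bmal1-/-. At 32 °C it took 254 and 178 to 186 and 254 in WT, and 234 and 123 to 159 and 168 in Bmal1-/-. Cd68, listed as a macrophage marker, averaged 30.6 FPKM in WT and 26.8 in Bmal1-/- at 27 °C, against 2.65 and 1.09 at 37 °C. Csf1r, on the same list, averaged 0.235 and 1.08 FPKM at 27 °C and 0.266 and 0.412 at 37 °C (WT first). Adgre1 and Ptprc, also on that list, were under 1 FPKM in every library. The part of such markers in the temperature differences was not tested.

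Gsk3b and Fbxw11 stood higher at the lower temperatures without reaching 2-fold. Gsk3b lay at 12.5, 14.9 and 18.02 FPKM in WT at 37 °C and at 23.4, 28.7 and 33.2 at 27 °C, with no overlap, a log2 difference of 0.89 ± 0.03. In Bmal1-/- the difference was 0.50 ± 0.03. Fbxw11 lay at 23.2, 26.3 and 30.5 FPKM in WT at 37 °C and at 42.9, 48.4 and 54.0 at 27 °C, also with no overlap, a difference of 0.87 ± 0.025. In Bmal1-/- it was 0.61 ± 0.025, and the ranges of Gsk3b and Fbxw11 at 27 and 37 °C were apart there too. Under a 1.5-fold limit both genes would be called in WT, and only Fbxw11 of the 2 in Bmal1-/-. With median-of-ratios scaling the differences at 27 °C were 0.63 and 0.24 for Gsk3b and 0.61 and 0.35 for Fbxw11 (WT first).

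Btrc differed in the other direction. In WT its libraries lay at 6.00, 6.39 and 6.96 FPKM at 37 °C and at 4.19, 4.57 and 5.12 at 27 °C, with no overlap, a log2 difference of -0.41 ± 0.02. In Bmal1-/- the difference was -0.08 ± 0.02, with overlap. With median-of-ratios scaling it was -0.63 in WT and -0.31 in Bmal1-/- (adjusted p 3.91e-31, limma), so that its size in Bmal1-/- depended on the scaling. At 32 °C in Bmal1-/- the sign did too, at 0.06 as deposited and -0.07 rescaled. With Fbxw11 higher and Btrc lower, the level of Fbxw11 went from 4.11 ± 0.35 times that of Btrc (SD, n = 24) at 37 °C to 10.7 ± 0.9 times (n = 23) at 27 °C in WT. In Bmal1-/- it went from 6.11 ± 0.59 (n = 24) to 10.1 ± 1.2 (n = 23). Within each genotype the ratios at 27 and 37 °C did not overlap.

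Csnk1d, Csnk1a1 and Usp2 were not called by temperature. Csnk1d differed between 27 and 37 °C by 0.45 ± 0.03 in WT and 0.68 ± 0.03 in Bmal1-/-, and its ranges were apart in Bmal1-/- only, where the difference was second to that of Csnk1e and would be called under a 1.5-fold limit. Csnk1a1 differed by 0.39 ± 0.02 and 0.33 ± 0.02. With median-of-ratios scaling these values were 0.19 and 0.41 for Csnk1d, and 0.12 and 0.06 for Csnk1a1. Csnk1a1 lay within 0.18 and 0.13 of the median of all genes. Usp2 differed by -0.11 ± 0.09 in WT and -0.12 ± 0.09 in Bmal1-/-, with adjusted p of 0.249 and 0.224 by limma, and by 0.00 ± 0.09 and 0.19 ± 0.09 at 32 °C. With median-of-ratios scaling the Usp2 differences at 27 °C were -0.30 (adjusted p 0.00219) and -0.36 (0.000328), past the threshold on p and under 2-fold.

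Whether the change from 37 to 27 °C differed between genotypes was tested as an interaction. No member reached 2-fold (0 of 7), against 4.44% of all genes. At adjusted p under 0.05 alone 6 of 7 members differed, against 68.8% of genes. Gsk3b (-0.39 ± 0.05), Csnk1e (-0.35 ± 0.05), Fbxw11 (-0.25 ± 0.04) and Csnk1a1 (-0.06 ± 0.025) had a smaller change in Bmal1-/-. Csnk1d (0.23 ± 0.05) had a larger one, and Btrc (0.33 ± 0.03) a less negative one. For Usp2 the difference was -0.01 ± 0.13, with an adjusted p of 0.969 (limma). It was -0.49 on the first day alone and 0.39 on the second, with adjusted p of 0.0249 and 0.0658 (limma).

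**Figure D4:**
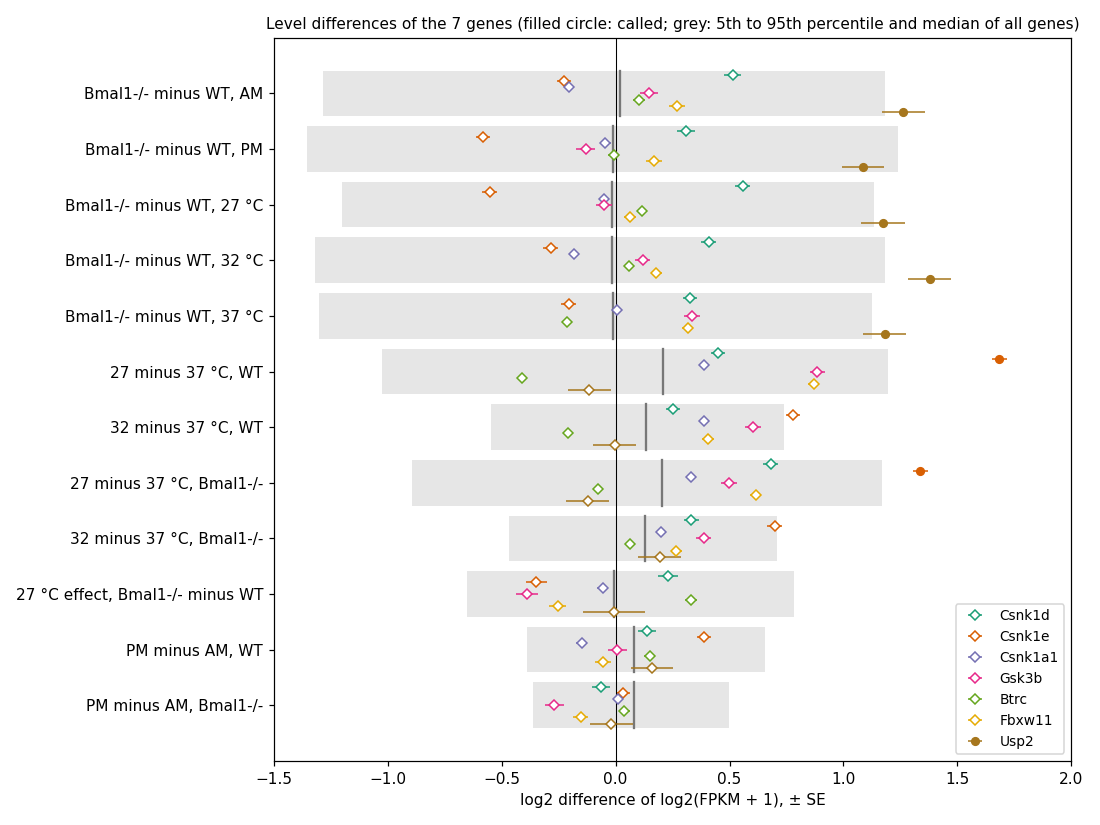
Log2 difference ± SE (horizontal axis) of each of the 7 genes in the 12 level comparisons (vertical axis). Filled circles are calls, open diamonds are not, and the grey bars give the 5th to 95th percentile of all genes with their median as a line. Usp2 is called in the 5 genotype comparisons and Csnk1e in the 2 comparisons of 27 with 37 °C.

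PM was compared with AM within each genotype. Here too each was a single course per genotype, and a batch of the course cannot be told apart from AM or PM. No member was called (0 of 7 in each), against 2.38% of genes in WT and 1.16% in Bmal1-/-. Csnk1e in WT was the one member whose libraries were apart, at 42.7, 48.2 and 54.3 FPKM (lowest, median and highest) in AM and at 55.4, 62.8 and 73.0 in PM, a log2 difference of 0.39 ± 0.03. It was higher in PM at 17 of 17 time points in WT, and its difference was 0.03 ± 0.03 in Bmal1-/-. The median of all genes lay at 0.08 in both comparisons. Gsk3b differed by 0.01 ± 0.04 in WT and -0.27 ± 0.04 in Bmal1-/-, and the other 5 members stayed between -0.15 and 0.16.

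The 10 courses were ordered by their mean, and each was compared with the next. For Usp2 the 5 Bmal1-/- courses stood above the 5 WT courses, and the only gap larger than the SD of its neighbours was the one between Bmal1-/- at 27 °C (6.71 ± 1.88 FPKM) and WT PM (3.15 ± 0.79). For Csnk1e the order was led by WT at 27 °C (142.6 ± 14.8), Bmal1-/- at 27 °C (96.3 ± 10.6) and WT at 32 °C (75.0 ± 4.3), each apart from the next by more than the larger SD. WT PM (63.3 ± 4.9) and Bmal1-/- at 32 °C (61.5 ± 4.1) did not differ beyond their spread, nor did any neighbours among the 4 lowest courses. Csnk1d stood highest in Bmal1-/- at 27 °C (124.0 ± 8.9) and then Bmal1-/- at 32 °C (97.3 ± 4.5), and no later neighbours differed beyond their spread. Gsk3b and Fbxw11 were lowest in WT at 37 °C, and Btrc was lowest in WT at 27 °C, each by more than that spread. Csnk1a1 fell into 3 tiers separated by such gaps, with both genotypes at 37 °C in the lowest.

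Daily rhythm was fitted as a 24 h cosine in each course, and 3 of 70 tests on the members were called at an adjusted p under 0.05. Over all genes 0.253 to 9.85% were called by course, so that the count itself is close to the background. Amplitudes, in log2 units from mid-level to peak, had a median of 0.05 over the 70 fits. Outside Usp2 the largest was 0.16. By course the members called were 1 of 7 in WT AM (3.85% of all genes), 1 in WT PM (5.61%) and 1 in Bmal1-/- at 32 °C (2.06%). No member was called in Bmal1-/- AM (3.40%), Bmal1-/- PM (3.02%), WT at 27 °C (2.15%), Bmal1-/- at 27 °C (9.85%), WT at 32 °C (0.253%), WT at 37 °C (4.92%) or Bmal1-/- at 37 °C (8.46%).

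Usp2 in WT AM had the largest amplitude, 0.39 ± 0.10, peaking at CT4.14 ± 0.91 h, and an adjusted p of 0.0390 (limma, Benjamini-Hochberg). The fitted peak was 1.72 times the trough on the FPKM + 1 scale. Its library values stayed between 2.68 and 3.355 FPKM from CT0 to CT9, reached the lowest value of 0.869 at CT18, lay between 3.09 and 3.54 from CT24 to CT33, and were 1.66 to 2.33 from CT36 to CT45. CT15 (3.48) was high although it falls in the fitted trough, and CT48 (5.52) was the highest library. In the other 9 courses the amplitude of Usp2 ran from 0.05 to 0.27, with adjusted p of at least 0.234. Without the shallowest library, WT AM at CT36, the adjusted p was 0.0516, with an amplitude of 0.39.

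Gsk3b in WT PM peaked at CT5.01 ± 0.94 h with an amplitude of 0.16 ± 0.04 (adjusted p 0.0451, limma). Its values were lowest at CT48 (18.5 FPKM) and CT15 (18.8) and highest at CT24 (28.7) and CT27 (27.1). In Bmal1-/- PM the fit gave 0.15 ± 0.04 at CT4.77 ± 1.05 h, with an adjusted p of 0.106. With median-of-ratios scaling the WT PM amplitude was 0.15 and the adjusted p 0.0856. Fbxw11 in Bmal1-/- at 32 °C had 0.10 ± 0.03 and a peak at CT17.97 ± 0.92 h (adjusted p 0.0470), and its highest library was CT14 of that course at 50.0 FPKM against a course median of 39.5. Each of the 3 calls was lost when the course was fitted alone, with adjusted p of 0.220 for Usp2, 0.313 for Gsk3b and 0.203 for Fbxw11.

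Csnk1d, Csnk1e, Csnk1a1 and Btrc were called in no course. Their largest amplitudes were 0.12 for Csnk1d (WT PM), 0.12 for Csnk1e (Bmal1-/- at 27 °C), 0.05 for Csnk1a1 (Bmal1-/- PM) and 0.06 for Btrc (Bmal1-/- PM). Their lowest adjusted p were 0.193, 0.0729, 0.266 and 0.388 (limma). The Csnk1e fit in Bmal1-/- at 27 °C passed, at an adjusted p of 0.0079, when the CT14 libraries of doubtful label were put back.

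The difference of the rhythms between genotypes was tested in each condition. One member was called, Gsk3b at 37 °C, with a difference of 0.18 log2 units between the fitted cosines (adjusted p 0.0450, limma). Gsk3b peaked at CT17.9 ± 1.1 h in WT (amplitude 0.12 ± 0.04) and at CT8.65 ± 1.75 h in Bmal1-/- (0.08 ± 0.04), and neither rhythm was called on its own. That 1 of 7 reads against 6.10% of genes at 37 °C. No member was called in AM (0.113% of genes), PM (0.0751%), 27 °C (1.5%) or 32 °C (0.0230%). For Usp2 in AM the difference was 0.61, with peaks at CT4.14 in WT and CT19.4 in Bmal1-/- and an adjusted p of 0.112.

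**Figure D5:**
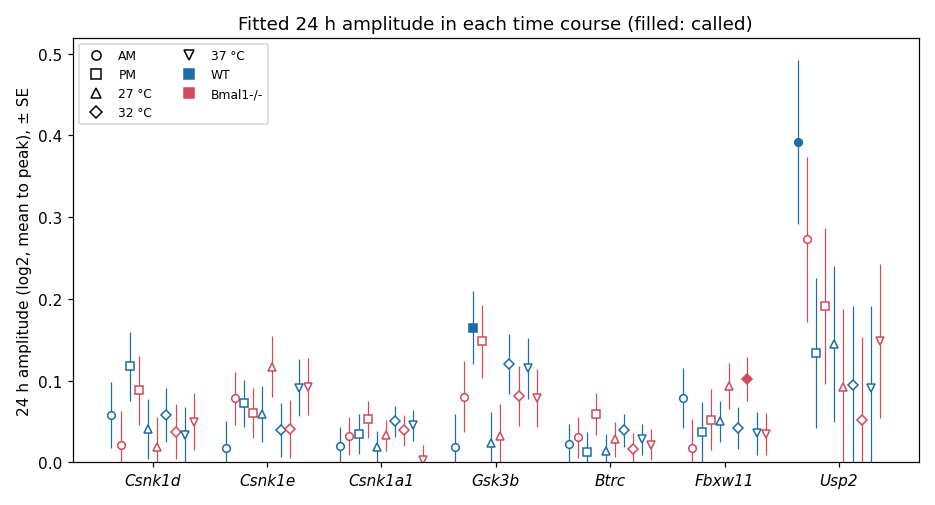
Fitted 24 h amplitude ± SE in log2 units (vertical axis, starting at 0, where lower error bars end) for the 7 genes in the 10 courses, by gene (horizontal axis), with WT in blue, Bmal1-/- in red, 1 symbol per condition and calls filled. Only Usp2 in WT AM (0.39), Gsk3b in WT PM (0.16) and Fbxw11 in Bmal1-/- at 32 °C (0.10) are filled.

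The substrates and partners of these enzymes were read from 5 lists with 46 genes, of which 45 were tested. Of the 5 substrates, Per1, Per2, Per3, Cry1 and Cry2, 4 were rhythmic in WT AM, 3 in WT PM and 3 in WT at 37 °C. In WT at 32 °C only Per3 was, and in WT at 27 °C and the 5 Bmal1-/- courses none of the 5 was. Per3 had an amplitude of 0.54 ± 0.06 in WT AM and Cry1 0.33 ± 0.03. Cry1 was higher in Bmal1-/- in all 5 conditions, by 1.51 to 1.95 log2 units, and Per3 lower in all 5, by -1.499 to -2.05. Cry2 rose in AM, at 32 °C and at 37 °C, by 1.02 to 1.28. The median difference of the 5 was 0.76 in AM, 0.50 in PM, 0.05 at 27 °C, 0.30 at 32 °C and 0.59 at 37 °C, against -0.02 to 0.02 for all genes.

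Among 15 other kinases, Csnk1g1, a casein kinase 1 gamma, rose in Bmal1-/- in AM, at 27, 32 and 37 °C by 1.08 to 1.51, and no other was called by genotype in any condition. Among 13 other ligases and deubiquitinases, Mdm2, the ligase of p53, rose in all 5 conditions by 2.36 to 2.72. Mycbp2 rose in AM, at 27 °C and at 37 °C by 1.10 to 1.29. Siah2 fell in AM by 1.19 on the log2 scale. Of 6 phosphatases, Ppp1cb fell in AM by 1.27, and none of the 6 SCF core subunits was called by genotype. Over all genes 13.5 to 15.6% were called by genotype, so that none of 6 is close to the background.

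At 27 against 37 °C the substrates Cry1 (1.34), Per1 (1.31) and Per3 (1.09) rose in WT, and Per1 (1.12) in Bmal1-/-. Of the kinases Mapk8, which encodes JNK1, rose in WT (1.27) and Bmal1-/- (1.47), and Csnk2a2, a casein kinase 2 subunit, in WT (1.01). The phosphatase Ppp2cb rose in both, by 1.19 and 1.21. No list gene was called at 32 °C, where 3.32% of all genes were called in WT and 2.74% in Bmal1-/-. None was called between PM and AM either, where 2.38% of all genes were called in WT and 1.16% in Bmal1-/-. In the interaction only Per2 was called, at -1.29 ± 0.11, against 4.44% of all genes. No SCF core subunit (Skp1a, Cul1, Rbx1, Cdc34, Ube2r2, Cand1) was called by temperature, against 13.7% of all genes at 27 °C in WT and 11.7% in Bmal1-/-. The median of these subunits at 27 °C, 0.26 in WT and 0.31 in Bmal1-/-, lay near that of all genes.

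The genes whose levels over the 210 libraries were most like each member were named by Pearson correlation of log2(FPKM + 1). These libraries share courses and genotypes, so that the values describe common differences between courses. Csnk1e was most like Gkap1 (0.958), Gak (0.952) and Psmd2 (0.951). Csnk1d was most like Sorbs3 (0.930), Abi1 (0.926) and Farp1 (0.923), and Fbxw11 like Crk (0.909), Traf6 (0.908) and Med15 (0.905). Usp2 was most like Tmem43 (0.891), Ehd3 (0.878) and Inka2 (0.877).

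For the remaining members the highest correlation was lower. Gsk3b was most like Pbrm1 (0.876), Ltn1 (0.866) and Esyt2 (0.866), Csnk1a1 like Exoc2 (0.851) and Ttc39b (0.833), and Btrc like Tsc22d1 (0.828), Svil (0.807) and Smarcal1 (0.801). Among the members themselves the highest value was 0.807, for Gsk3b and Fbxw11, and the lowest -0.673, for Csnk1e and Btrc. Within courses the picture for Usp2 was weaker. Over the 105 WT libraries, as deviations from the course mean, its highest correlations were with Tsc22d3 (0.433), Fbln5 (0.420), Thy1 (0.419), Lmf2 (0.415) and Spata7 (0.402). Those genes were picked as the highest, so that every other named gene lies lower by construction. Of the clock genes, Per1 stood at 0.227, Per3 at 0.182, Dbp at 0.152, Nr1d1 at 0.0860 and Arntl at -0.207. Their rank among all genes was not taken.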

How the data were processed

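Gene-level FPKM values were deposited by the authors for 212 libraries. Per the labels' protocols, poly(A) RNA went into stranded libraries read from 1 end at 101 bases. The submitters' processing notes name TopHat, TopHat2 2.1.0, Cuffdiff and GRCm38. Symbols and positions came from GENCODE M21, and promoter windows from RefSeq (GRCm38.p6). Library depth was derived from the step of 1 read in the FPKM of 1357 genes with a single transcript of at least 1500 bp. There, 96.5% of low values lay within 0.15 of a whole read. With no counts, no counting interval is given.

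Values were analysed as log2(FPKM + 1) with limma 3.58.1 in R 4.3.3 (eBayes with an intensity trend), in 1 fit of the 68 AM and PM libraries and 1 of 142 temperature libraries. Genes averaging 1 FPKM or more entered. Each course had an intercept, a linear time term and a 24 h cosine and sine. Levels compared intercepts, two-sided. Rhythm used the moderated F test. P-values were adjusted by Benjamini-Hochberg over all genes tested. Level calls needed an adjusted p under 0.05 and a 2-fold difference. The AM and PM fit was tested on simulated data, with noise independent between libraries and no drift within a course. That test does not cover the temperature courses or any dependence between neighbouring time points. All members were named. Of the lists, the rule named up to 3 called genes of largest difference per comparison, and other called list genes were named after their values were seen. Likeness named the 3 genes of highest correlation per member, and 5 for Usp2 within WT courses, leaving out predicted genes, RIKEN clones and pseudogenes. The members and lists were chosen with earlier results of these data known. Alternatives covered the pseudocount, filter, scaling, CT14 and shallowest libraries, time terms, fold limit, period and grouping of courses. Some results that these rules would name are not reported here.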

Additional observations from a re-analysis of the deposited data

Results flagged for a closer look

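The change from 37 to 27 °C differed between genotypes, by the interaction test, for 6 of the 7 genes (limma, adjusted p under 0.05), where 68.8% of all genes did. On the log2 scale, Bmal1-/- minus WT, the differences were -0.25 for Fbxw11 (adjusted p 1.91e-10), -0.35 for Csnk1e (6.17e-11), -0.39 for Gsk3b (5.39e-12), -0.0571 for Csnk1a1 (0.0360), 0.23 for Csnk1d (4.4e-06) and 0.33 for Btrc (6.56e-22). All are under 2-fold. For Csnk1a1 the first day alone gave 0.05, with an adjusted p of 0.291, so that its direction rests on the second day. The 24 h rhythm of Gsk3b at 37 °C differed between genotypes by 0.18 log2 units (adjusted p 0.0450), a call that was lost under 6 of 9 other settings, with adjusted p up to 0.402.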

How the results depend on the processing

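Over the alternatives, the genotype calls of Usp2 held except at 27 °C with the first day alone (0.71), and the 27 °C calls of Csnk1e held under each of them. Of 1869 values of single genes recomputed, 24 lost a call, 13 gained one, none reversed a call, and 17 uncalled values changed sign. Rhythm calls of the members were 3, and were 0 with no filter on low values, 0 with a period of 22 h, and 1 with courses fitted alone, where the 3 were lost and Gsk3b in WT at 32 °C was gained (adjusted p 0.0274). Rhythm differences of the members were 1, and were 0 with no filter, with courses fitted alone, with periods of 22 and 26 h and with no linear time term. With a 1.5-fold limit the temperature calls of the members went from 2 to 9. Over all genes, summed over comparisons, that limit took genotype calls from 9481 to 20553, temperature calls from 4092 to 12417, interaction calls from 579 to 1847 and PM against AM calls from 472 to 1730. A pseudocount of 0.1 FPKM gave 889 interaction calls and 852 PM against AM calls. Rhythm calls over all genes went from 5721 to 2291 with courses fitted alone and 3088 with a period of 22 h, and rhythm differences from 1019 to 2350 with the CT14 libraries included, 58 with courses fitted alone, 425 at 22 h and 179 with no linear term. The cause was not tested. By replicate number, no paired analysis was possible because the labels give none. Libraries could be paired by time point, and that block changed no call of the members. With 1 library per time point, preparations cannot be compared, and depth is an estimate.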

Other observations

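The 2 libraries at 27 °C and CT14, left out above, can be read for the members as values. In the library labelled WT, Csnk1d stood at 123.2 FPKM, Csnk1e at 104.9 and Usp2 at 5.72. In the library labelled Bmal1-/- they stood at 72.6, 132.2 and 2.61. The Csnk1d value labelled WT lay above all 23 other WT libraries of the course (70.5 to 92.8) and inside the Bmal1-/- range (107.8 to 143.4 FPKM), and the Csnk1e value lay below the WT range (118.8 to 163.6). The Csnk1e value labelled Bmal1-/- lay above that genotype's range (75.6 to 117.1), and its Usp2 value below it (3.97 to 10.5). The Usp2 value labelled WT lay just above the WT highest of 5.64. For Csnk1a1, Gsk3b, Btrc and Fbxw11, whose genotypes overlap at 27 °C, the pair stood at 149.3 and 154.4, 31.4 and 29.3, 4.78 and 5.15, and 51.1 and 47.6 FPKM (WT label first).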
